A study of Homo sapiens with 24 samples.

Results

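The change from 6 d to 8 d of oncogenic RAS was measured in IMR90, a human fibroblast line from fetal lung, by setting the 3 arrays labelled 8 d against the 3 arrays labelled 6 d, of 24 arrays in all, across 10977 genes. All cells, at every time point including 0 h, carried ER:RAS-G12V, a mutant RAS protein joined to the estrogen receptor so that 4-hydroxytamoxifen (4-OHT) switches it on. The 6 d and 8 d groups had 100 nM 4-OHT in the medium for 6 and 8 days, and each time point has 1 array from each of 3 biological batches, A, B and D, which pair the arrays. The other arrays, at 0, 2, 8 and 24 h and 2 and 4 d, serve here to estimate the spread of each gene and to place the late step in the time course. The labels state neither the promoter of the construct nor whether the cells are a clone. They do say that cells were passaged the day before harvest. Untreated arrays at 6 d and 8 d were not analysed here, so time in 4-OHT and time in culture cannot be told apart.

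Cells in which RAS stays active stop dividing for good, a state called oncogene-induced senescence. The arrest is held by the inhibitors of cyclin-dependent kinases CDKN1A (p21) and CDKN2A (p16), and lamin B1, a protein of the nuclear envelope, is lost. Senescent fibroblasts also secrete interleukins, chemokines and proteases, known together as the senescence-associated secretory phenotype. The comparison asks what still moves once this state is in place.

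From 6 d to 8 d 188 of 10977 genes changed, most of them by less than 2-fold. Serum amyloid A (SAA2), cornified envelope proteins (LCE2C, LCE2A), the elastase inhibitor elafin (PI3), the cystatin CST4 and the macrophage elastase MMP12 rose by 2.15-fold to 3.84-fold. The hyaluronan-binding protein TNFAIP6, collagen III (COL3A1), the proteoglycan lumican (LUM) and the interferon-induced protein IFI6 fell by 2.07-fold to 3.32-fold. Among genes of the secretory phenotype and of the arrest itself, IL1B, IL6, CXCL8, CDKN1A, CDKN2A and LMNB1 did not pass the test.

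Values are log2 intensities from the series matrix, differences are 8 d minus 6 d on that log2 scale, the value after ± is the standard error of the fit, and n is 3 arrays at each time point. A gene was called where limma, fitted on all 24 arrays with time point and batch, gave an adjusted p under 0.05. By this rule 188 of 10977 genes (1.71%) changed, 76 of them higher (0.692%) and 112 lower (1.02%). Only 20 of the 188 changed by 2-fold or more, 6 upward and 14 downward, and the median size of a called change was 0.59. Groups did not overlap in 182 of the 188, or 96.8%, against 1766 of all genes tested (16.1%). The genes were called from these same arrays, so separate groups follow largely from the choice and are no added support. The same fit called 1116 genes (10.2%) from 4 d to 6 d, 627 higher (5.71%) and 489 lower (4.45%), and 4061 (37%) from 2 d to 4 d. For 9356 genes (85.2%) the 95% confidence interval of the change from 6 d to 8 d lay wholly between −0.5 and 0.5. That number was 8224 from 4 d to 6 d and 6480 from 2 d to 4 d.

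The 3 batches did not move alike. Over all genes, the step from 6 d to 8 d in batch A had a correlation of 0.59 with that in batch B, 0.035 with that in batch D, and batches B and D had 0.15. These are descriptions across genes, which are not independent, of pairs measured on the same platform. The batch D step was as wide as the others (standard deviation over genes 0.258, against 0.246 and 0.260). Without all arrays of batch D, 465 genes passed, without batch A 11, and without batch B 31. Of the 50 called genes that the naming rule gave, 8 kept their call whichever array or batch was left out: SAA2, LCE2C, PI3, OTUB2, TNFAIP6, GPC6, IFI6 and PCOLCE. On the third principal component (5.90% of the variance) 4 d gave −17.5 to −15.6, 6 d gave 2.84 to 3.73 and 8 d gave 12.8 to 14.7. On the first (65.8%), the 6 d arrays (36.9 to 44.2) and the 8 d arrays (40.4 to 45.0) overlapped.

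The label of fibroblasts held on these arrays for the fibroblast, epithelial and immune markers, and less clearly for the endothelial ones. All 12 fibroblast markers were above background on all 6 arrays, with a summed linear signal of 33380 to 36450 at 6 d and 29390 to 30880 at 8 d. Of 14 epithelial markers 13 were above background on none of the 6, among them EPCAM and CDH1, and KRT18 was on all. Of 11 endothelial markers only 3 (CDH5, ERG and ESAM) were above background on none, TEK, VWF and ROBO4 were on all 6, and the others on some. Of 11 immune markers on the array 9 were on none, among them PTPRC, CD3E and CD14, and CSF1R was on all 6. In such bulk samples, a smaller share of cells with a transcript and less of it per cell cannot be told apart.

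Acute phase proteins are secreted in inflammation, chiefly by the liver, and SAA1 and SAA2 are a pair of close paralogs on chromosome 11. SAA2 read 6.93, 6.85 and 6.45 in batches A, B and D at 6 d, and 8.76, 8.85 and 8.44 at 8 d, and values below follow the same batch order. Every 8 d array lay above every 6 d array, and SAA2 rose by 1.94 ± 0.13, or 3.84-fold (adjusted p = 2.45e-08). SAA1 read 5.99, 5.89 and 5.91 at 6 d, above background on none of the 3 arrays, and 7.0, 7.17 and 6.43 at 8 d. Its groups did not overlap either, and SAA1 rose at least 1.69-fold (adjusted p = 0.000105), a bound taken against the lowest signal above background. The bounded fold compares the 8 d mean with that floor, and the fitted difference was 0.94 ± 0.12. C3, the central protein of the complement cascade, read 7.33, 7.46 and 6.76 at 6 d and 8.21, 8.47 and 7.56 at 8 d. It rose by 0.89 ± 0.16 (adjusted p = 0.0039). CD55, a membrane protein that shields cells from complement, went the other way, from 10.51, 10.46 and 10.20 to 9.64, 9.43 and 10.08 (−0.67 ± 0.17, adjusted p = 0.0429). Of 14 measured genes of complement and the acute phase, 3 rose (SAA2, SAA1, C3) and 1 fell (CD55), with a median of 0.04 against −0.01 over all genes. The shares called over all genes tested were 0.692% higher and 1.02% lower. Without batch A the call of SAA2 held and those of SAA1 (adjusted p = 0.0887) and C3 (0.271) did not. C3 and CD55 were also lost without batch B, and CD55 without 5 of the 6 single arrays (all but 8 d D) and in the fit without batch (adjusted p = 0.0788).

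Late cornified envelope (LCE) genes form a cluster on chromosome 1 and encode small proteins of the skin's outer layer. LCE2C read 6.98, 7.06 and 6.72 at 6 d and 9.11, 8.94 and 8.33 at 8 d, a rise of 1.87 ± 0.13 or 3.67-fold (adjusted p = 2.45e-08). LCE2A read 7.97, 7.89 and 8.25 at 6 d and 9.46, 9.61 and 9.06 at 8 d, a rise of 1.34 ± 0.18 (adjusted p = 0.000164). In both genes the groups were apart, with the smallest step in batch D, and LCE2A missed the threshold without batch A (adjusted p = 0.103). LCE2D, singled out after its values were seen as the neighbour of LCE2C, was above background on none of the 6 d arrays and rose at least 1.44-fold (adjusted p = 0.000865). Of 4 measured LCE genes 3 were called higher and 0 lower, where 0.692% of all genes tested were called higher. The LCE gene that was not called differed by 0.16. The LCE2 genes, like SAA1 and SAA2, are close in sequence, and whether each probe reads its own gene alone was not tested.

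The stretches of 250 bases before the starts of the 3 LCE2 genes are shown because these neighbours rose together. They are from RefSeq (GRCh38.p14), all on the plus strand of chromosome 1, at chr1:152698095-152698344 for LCE2A, chr1:152675029-152675278 for LCE2C and chr1:152663130-152663379 for LCE2D. Capitals mark matches to TTGCNNAA, a core of sites for C/EBP factors, and to TATAAA, the TATA box.
LCE2A: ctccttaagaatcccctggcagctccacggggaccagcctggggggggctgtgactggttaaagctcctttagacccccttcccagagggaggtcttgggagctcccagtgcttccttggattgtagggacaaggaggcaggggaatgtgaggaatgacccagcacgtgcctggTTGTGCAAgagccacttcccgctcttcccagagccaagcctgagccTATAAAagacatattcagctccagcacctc
LCE2C: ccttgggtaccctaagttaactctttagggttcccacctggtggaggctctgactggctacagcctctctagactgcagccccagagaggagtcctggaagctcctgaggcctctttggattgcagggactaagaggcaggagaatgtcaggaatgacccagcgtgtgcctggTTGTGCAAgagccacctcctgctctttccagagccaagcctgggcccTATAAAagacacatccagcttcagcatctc
LCE2D: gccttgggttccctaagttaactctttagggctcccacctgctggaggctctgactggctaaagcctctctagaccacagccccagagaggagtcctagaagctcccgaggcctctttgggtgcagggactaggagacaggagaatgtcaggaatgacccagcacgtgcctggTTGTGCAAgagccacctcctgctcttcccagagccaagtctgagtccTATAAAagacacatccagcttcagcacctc
The stretches of LCE2C and LCE2D were identical at 92.0% of aligned positions, LCE2A and LCE2C at 77.4% and LCE2A and LCE2D at 78.6%. In all 3 the C/EBP match reads TTGTGCAA, at 76 to 69 bases before the start in LCE2A and 77 to 70 in LCE2C, and TATAAA lies at 30 to 25 bases before the start in both. Searched on both strands, the letters of the C/EBP core were in 9.05% of the 35116 stretches of this length in the table and TATAAA in 10.7%. No searched match overlapped another in the printed stretches. Of the 24 genes with the largest shifts, 12 had a stretch in the table. The C/EBP core was in 3 of them (LCE2A, LCE2C and OTUB2) and TATAAA in 3 (LCE2A, LCE2C and GPC6). A match describes letters only.

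The inhibitors PI3 and CST4 and the protease MMP12 were also among the 12 largest rises. PI3, which encodes elafin, read 7.70, 7.80 and 7.40 at 6 d and 8.56, 8.91 and 9.36 at 8 d, a rise of 1.31 ± 0.20 (2.47-fold, adjusted p = 0.000693). CST4, a salivary-type cystatin that inhibits cysteine proteases, read 7.48, 7.55 and 7.89 and then 8.35, 8.71 and 9.60 (1.24 ± 0.23, adjusted p = 0.00565). For both the 6 d and 8 d values were apart, and the step was widest in batch D. MMP12, the macrophage elastase, read 7.71, 7.66 and 8.32 and then 8.91, 8.57 and 9.52 (1.10 ± 0.20, adjusted p = 0.0035). The related CST2 rose by 0.56 ± 0.12 (adjusted p = 0.0162) and SERPINB4, an inhibitor of proteases first known from squamous carcinoma, by 0.77 ± 0.19 (adjusted p = 0.0377). SERPINE2, which inhibits thrombin and plasmin, fell from 13.68, 13.72 and 13.27 to 12.80, 12.87 and 13.11 (−0.63 ± 0.12, adjusted p = 0.00509). Where 0.692% of all genes tested were called higher and 1.02% lower, 3 of 17 cystatins and other late secreted genes rose and 0 fell. Of 18 matrix metalloproteinases, TIMPs and serpins 2 rose and 1 fell, and the medians of these lists were 0.03 and 0.01. Without batch A, PI3 alone of these genes kept its call (0.98 to 1.53 over all arrays and batches left out). CST4 (adjusted p up to 0.112) and MMP12 (up to 0.299) missed it without 6 d B too. CST2 (up to 0.296), SERPINB4 (up to 0.52) and SERPINE2 (up to 0.396) also missed it without batch B. Among single arrays, CST2 and SERPINB4 missed it without at least 4 of the 6, and SERPINE2 without 6 d B or 8 d A.

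Inside the cell, OTUB2, a deubiquitinase, had the least spread of the large rises. It read 8.94, 8.90 and 8.88 at 6 d and 9.90, 9.84 and 9.80 at 8 d (0.94 ± 0.09, adjusted p = 3.45e-06), and its other kept probes gave 0.87 and 0.63. DUSP4, a phosphatase that switches off ERK and is itself induced by it, rose from 9.13, 9.25 and 8.83 to 9.75, 9.92 and 9.89 (0.79 ± 0.14, adjusted p = 0.00332). It was the 1 gene to pass among 24 of RAS and ERK output, where 1.71% of all genes tested passed. The median of that list was 0.08. ATP2B4, a calcium pump of the plasma membrane (0.88 ± 0.17, adjusted p = 0.00677), and TRNP1, a nuclear regulator of proliferation in neural progenitors of the mouse (0.86 ± 0.17, adjusted p = 0.00939), also rose. A second probe moved less than the one read here for ATP2B4 (0.42) and for DUSP4 (0.46). Without batch A, DUSP4 (adjusted p = 0.229) missed the threshold. ATP2B4 (up to 0.14) and TRNP1 (up to 0.249) missed it without batch A or batch B, and without 6 d B or 8 d D, in that order.

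**Figure D1:**
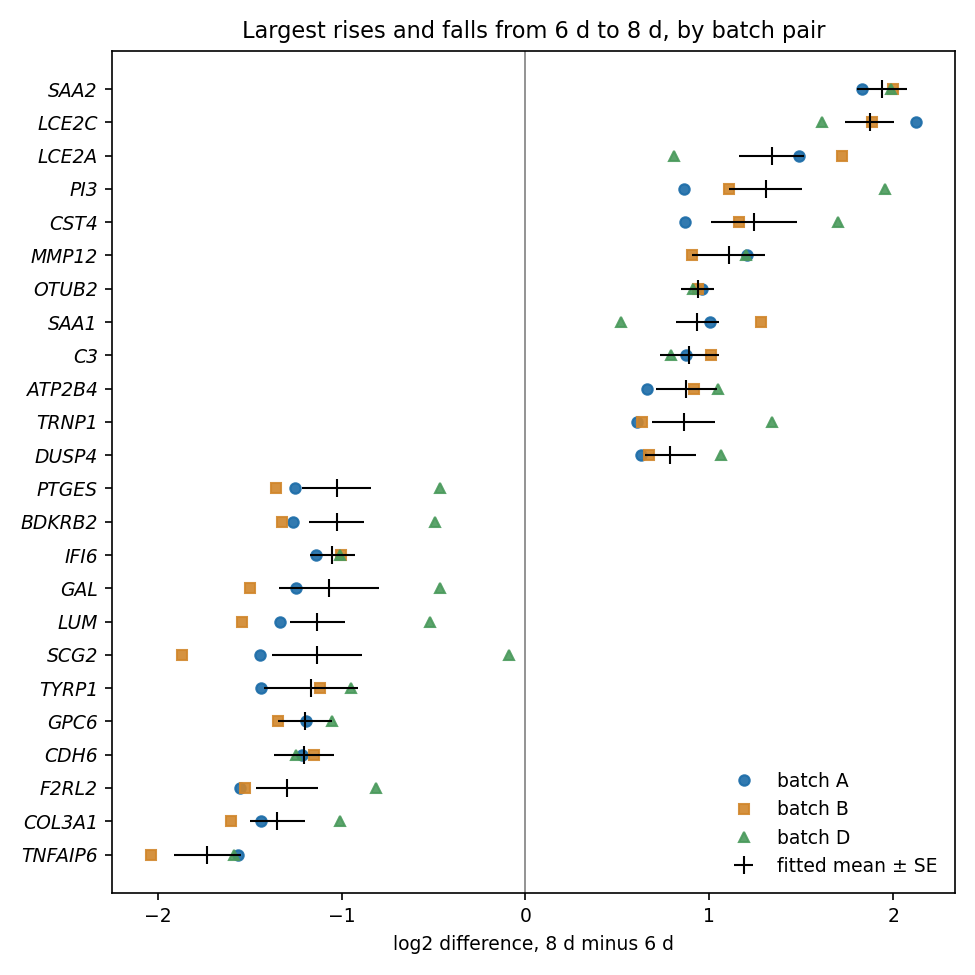
Log2 difference between 8 d and 6 d (horizontal axis) for the 24 genes with the largest called rises and falls, with 1 point per batch pair and a black tick and bar for the fitted mean ± standard error. SAA2, at 1.94, and TNFAIP6, at −1.73, mark the ends. The 3 pairs of every gene lie on 1 side of 0 because the rule that chose the genes required it.

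By count, though not by share, matrix genes were the list with the most calls, against shares over all genes tested of 0.692% higher and 1.02% lower. Fibroblasts build the collagen fibres and proteoglycans of connective tissue, and of 44 measured genes of collagen chains and fibroblast matrix 9 fell and 1 rose, with 33 below 0 and a median of −0.20, against −0.01 and 5738 of 10977 below 0 over all genes. From 4 d to 6 d 18 of the 44 had been called lower and 0 higher (median −0.31), where 4.45% of all genes tested were called lower. COL3A1, the chain of collagen III, read 11.30, 11.40 and 11.35 at 6 d and 9.86, 9.80 and 10.34 at 8 d. The groups were apart, and COL3A1 fell 2.55-fold (−1.35 ± 0.15, adjusted p = 2.48e-05). LUM, lumican, read 10.96, 10.95 and 10.51 and then 9.63, 9.40 and 9.99 (−1.13 ± 0.15, adjusted p = 0.000175). BGN, biglycan, a proteoglycan of the same leucine-rich family, read 9.55, 9.73 and 9.19 and then 8.36, 8.58 and 8.46 (−1.03 ± 0.15, adjusted p = 0.000572). For LUM and BGN, too, each 8 d array was below each 6 d array. PCOLCE, which enhances the trimming of procollagen, read 10.39, 10.52 and 10.57 and then 9.59, 9.65 and 9.75 (−0.83 ± 0.10, adjusted p = 3.43e-05).

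Smaller falls passed for POSTN, periostin (−0.86 ± 0.19, adjusted p = 0.0219), and, named beyond the rule to complete the 9, the large proteoglycan VCAN (−0.67 ± 0.14, adjusted p = 0.0174), DCN, decorin (−0.62 ± 0.16, adjusted p = 0.045), and the fibrillar chain COL5A2 (−0.40 ± 0.10, adjusted p = 0.0325). DCN read 10.74, 10.74 and 9.80 at 6 d and 9.82, 9.93 and 9.67 at 8 d, so its groups overlapped and batch D moved by only −0.12. COL1A1, a chain of collagen I, also fell (−0.39 ± 0.10, adjusted p = 0.0479, and 0.0712 in the fit without batch). THBS1, thrombospondin 1, a matrix glycoprotein that activates latent TGF-beta, rose from 12.07, 12.25 and 12.27 to 12.89, 12.82 and 12.89 (0.67 ± 0.16, adjusted p = 0.0352). The median of the list was −0.22, −0.21 and −0.16 in batches A, B and D. The number of matrix genes that fell was 9 without batch D, 4 without batch B and 1 without batch A, which was PCOLCE, and over the 6 single arrays it ranged from 4 to 9. COL3A1 came close to the threshold without batch A (adjusted p = 0.0538), LUM (0.128) and BGN (0.216) did not pass. Of the arrays and batches left out in turn, THBS1 passed only without batch D, POSTN not without 4 of the single arrays (adjusted p up to 0.32) and COL1A1 not without 5 (up to 0.734). With values centred on each array's median in place of the series matrix, 1 gene of the list fell, COL3A1, and 34 of the 44 lay below 0.

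From 4 d to 6 d 8 of the 12 fibroblast markers were called lower and 0 higher, where 4.45% of all genes tested were called lower. From 6 d to 8 d 3 of the 12 fell, where 1.02% of all genes tested were called lower, and 0 rose, with 5 above 0. COL3A1 and COL1A1 are also members of the matrix list, and the third is PDGFRB, the receptor for platelet-derived growth factor B (−0.78 ± 0.15, adjusted p = 0.0093). PDGFRB read 10.97, 10.92 and 10.59 at 6 d and 9.91, 10.14 and 10.10 at 8 d. It lost its call without batch A, batch B or any of 3 single arrays (adjusted p up to 0.582). Other surface proteins fell as far. CDH6, a cadherin of cell adhesion, read 10.25, 10.21 and 10.23 at 6 d and 9.04, 9.06 and 8.98 at 8 d (−1.20 ± 0.16, adjusted p = 0.000213). GPC6, a glypican anchored to the membrane, read 8.30, 8.30 and 8.07 and then 7.11, 6.96 and 7.01 (−1.20 ± 0.15, adjusted p = 7.21e-05), while its second probe gave −0.25. The 3 arrays of a time point were closely grouped for CDH6, which missed the threshold only without batch A (adjusted p = 0.0887).

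TNFAIP6 had the deepest fall. It encodes TSG-6, a secreted protein that binds hyaluronan and is induced by TNF and IL-1. The arrays read 8.61, 8.78 and 8.37 at 6 d and 7.05, 6.74 and 6.79 at 8 d, with no overlap, a 3.32-fold fall (−1.73 ± 0.18, adjusted p = 1e-05). It was the 1 gene of 25 of the NF-kB pathway to pass, where 1.71% of all genes tested did. The median of that list was −0.05. PTGES, the prostaglandin E synthase, fell from 7.42, 7.44 and 6.77 to 6.16, 6.08 and 6.31, where 2 of 3 arrays were above background (−1.03 ± 0.19, adjusted p = 0.00469). Its partner PTGS2, cyclooxygenase 2, read 12.59, 12.69 and 12.40 and then 12.03, 11.71 and 12.36 (−0.52, 95% interval −1.28 to 0.24) and did not pass. The call of PTGES did not hold without batch A, batch B or 6 d B (adjusted p up to 0.341).

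The receptors F2RL2 and BDKRB2 were among the 12 largest falls. F2RL2, a protease-activated receptor that thrombin cleaves, read 8.16, 8.36 and 7.67 at 6 d and 6.61, 6.84 and 6.86 at 8 d (−1.30 ± 0.17, adjusted p = 0.000114). BDKRB2, the B2 receptor for bradykinin, read 9.01, 9.15 and 8.69 and then 7.75, 7.83 and 8.20 (−1.03 ± 0.15, adjusted p = 0.000515). Both had groups that were apart and narrower steps in batch D than in A and B. Neither passed without batch A (adjusted p = 0.0887 for F2RL2 and 0.255 for BDKRB2), and BDKRB2 did not without batch B. Secreted neuropeptides and a pigment enzyme complete the large falls: GAL, galanin (−1.07 ± 0.27, adjusted p = 0.0463), SCG2, secretogranin II (−1.13 ± 0.24, adjusted p = 0.0169), and TYRP1, which acts in melanin synthesis (−1.17 ± 0.26, adjusted p = 0.0196). These 3 were the least firm. SCG2 read 8.28, 8.35 and 7.04 at 6 d and 6.84, 6.48 and 6.96 at 8 d, so that batch D hardly moved. GAL and SCG2 did not pass in the fit without batch (adjusted p = 0.153 and 0.179), and each of the 3 lost its call without batch A, batch B and at least 4 single arrays (adjusted p up to 0.669).

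Interferon is an antiviral cytokine that induces a broad set of genes. Of 31 measured interferon-stimulated genes 27 lay below 0 and the median was −0.17, with 3 called lower and 0 higher. Over all genes tested 5738 of 10977 lay below 0 and 1.02% were called lower. From 4 d to 6 d 12 of the 31 had been called lower and 0 higher (median −0.36), where 4.45% of all genes tested were called lower. IFI6, a small mitochondrial protein that delays apoptosis, read 11.23, 11.41 and 11.21 at 6 d and 10.09, 10.41 and 10.20 at 8 d (−1.05 ± 0.12, adjusted p = 4.41e-05). Its groups were apart and its fall held without each array and batch (−1.11 to −0.99). IFI44 (−0.62 ± 0.14, adjusted p = 0.023) and IFIH1, the sensor MDA5 of double-stranded RNA (−0.47 ± 0.11, adjusted p = 0.0298), fell as well. Medians by batch were −0.21, −0.24 and −0.28. Without batch D 5 members fell, and without batch A or batch B 1 did, IFI6. IFI44 and IFIH1 lost their calls without any of the 3 batches and without 3 and 4 of the single arrays (adjusted p up to 0.178 and 0.373), and IFI44 in the fit without batch (adjusted p = 0.0629). MHC class I genes, which interferon also induces, had 0 of 12 called, where 1.71% of all genes tested were. B2M was at −0.17 (95% interval −0.41 to 0.08).

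**Figure D2:**
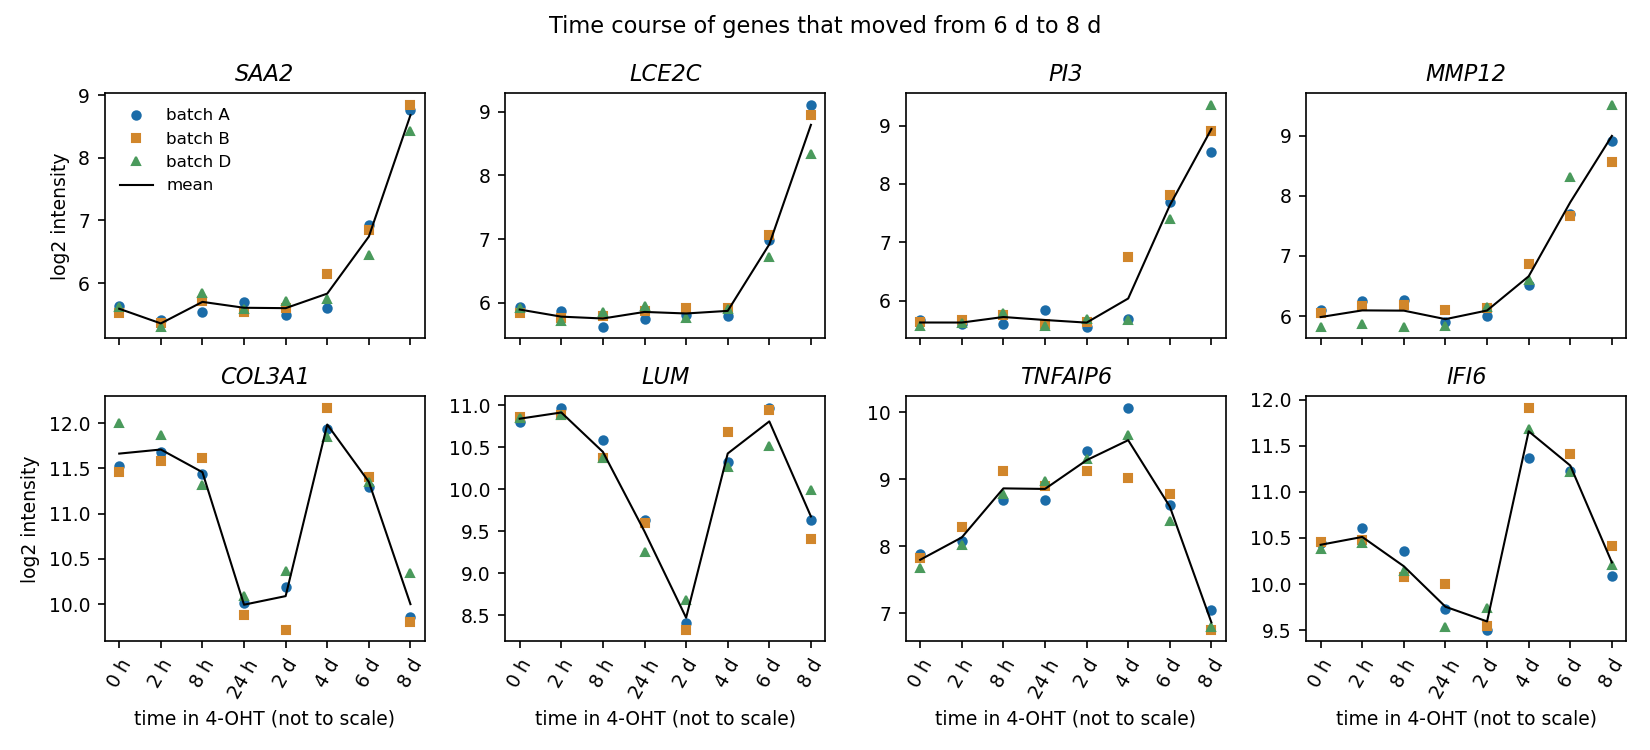
Log2 intensity (vertical axis, its own scale in each panel) of 8 genes at the 8 time points in 4-OHT, with 1 point per array shaped by batch and a line through the means. SAA2, LCE2C, PI3 and MMP12 are at or near their lowest values before 4 d and highest at 8 d, while COL3A1, LUM and IFI6 are low at 2 d, come back at 4 d or 6 d and are lower at 8 d.

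In 3 lists of secreted factors and their receptors 1 gene each passed, all of them lower, where 1.02% of all genes tested were called lower. Of 13 measured interleukin-1 and IL-6 family genes 0 rose and 1 fell, IL6ST, the shared receptor chain gp130 (−0.56 ± 0.13, adjusted p = 0.023). Of the 13, 9 lay below 0, and their median was −0.22 in the fit and −0.36, −0.18 and 0.06 in batches A, B and D. With the mean of its 3 kept probes IL6ST did not pass (−0.44, adjusted p = 0.099). Of 15 chemokines 0 rose and 1 fell, CCL2, which draws monocytes (−0.62 ± 0.14, adjusted p = 0.0261, and 0.21 in the fit without batch). Of 23 growth factors and IGF binding proteins 0 rose and 1 fell, BMP4 (−0.77 ± 0.18, adjusted p = 0.0325, and 0.203 without batch in the fit). These 3 falls were lost without batch A, without batch B and without 4 of the 6 single arrays each (adjusted p up to 0.438, 0.481 and 0.59). Without batch D 5 interleukin genes fell, 2 chemokines and 3 growth factors.

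Among the best-known factors IL1B read 13.98, 13.86 and 13.89 at 6 d and 13.90, 14.07 and 14.03 at 8 d, a difference of 0.09 (95% interval −0.48 to 0.67). IL6 differed by −0.09 (−0.69 to 0.50) and CXCL8, the chemokine IL-8, by −0.06 (−0.65 to 0.53). IL1B, CXCL8 and CXCL1 lay near the upper end of the arrays, whose highest values were 14.29 to 14.52 on these 6, where a signal can understate a change, so their intervals are not bounds on the change in RNA. The proteases MMP1 and MMP3 differed by −0.14 (−0.48 to 0.20) and −0.06 (−0.72 to 0.60). CXCL5, a neutrophil chemokine, had the widest interval, 0.28 (−0.76 to 1.32).

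**Figure D3:**
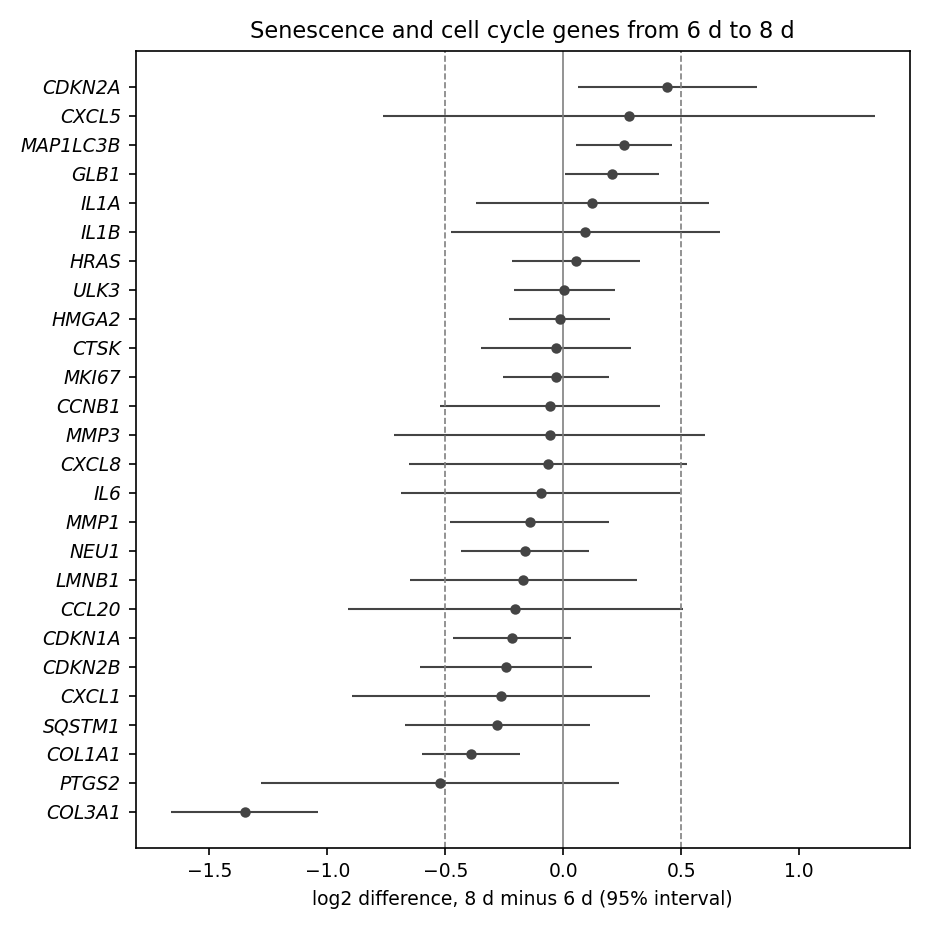
Difference between 8 d and 6 d with its 95% confidence interval on the log2 scale for 26 genes of the secretory phenotype, the arrest, the lysosome and autophagy, with dashed lines at −0.5 and 0.5. COL3A1, at −1.35, and COL1A1, at −0.39, are the 2 called genes, and the other points lie between −0.52 for PTGS2 and 0.44 for CDKN2A.

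The arrest genes held no call, which short lists can do where 1.71% of all genes tested were called. CDKN1A read 13.91, 13.96 and 13.76 at 6 d and 13.51, 13.57 and 13.90 at 8 d (−0.22, 95% interval −0.47 to 0.03), lower in batches A and B and higher in D. Like IL1B it lay near the upper end of the arrays, so its interval is not a bound on the change in RNA. CDKN2A differed by 0.44 (0.06 to 0.82, adjusted p = 0.312), of which 0.93 in batch B and 0.02 in batch A, and CDKN2B, the inhibitor p15, by −0.24 (−0.61 to 0.12). LMNB1 read 6.19, 6.32 and 7.25 at 6 d and 6.68, 6.40 and 6.17 at 8 d, and its difference of −0.17 (−0.65 to 0.31) was 0.49, 0.08 and −1.08 in batches A, B and D. Of 26 CDK inhibitors and p53 targets 0 passed, with TP53INP1, a p53 target in stress and autophagy, nearest (−0.49, adjusted p = 0.0625). Of 21 genes of senescence chromatin and the lamina 0 passed.

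Cell cycle genes set batch D apart. None of 48 genes of G2 and mitosis and of 49 of DNA replication and G1/S passed, where 1.71% of all genes tested did. The mean level of the G2 and mitosis genes was 6.72, 6.75 and 7.38 at 6 d in batches A, B and D, and 7.08, 7.01 and 6.62 at 8 d. Batches A and B were thus higher at 8 d (medians 0.36 and 0.22) and batch D lower (−0.78). Before the arrest the same mean lay between 9.30 and 9.69 at 0 h, and at 4 d it was 7.35, 6.85 and 7.57. The mean of the replication genes was 7.24, 7.30 and 7.57 at 6 d, highest in batch D, and 7.35, 7.36 and 7.21 at 8 d, lowest in batch D. CCNB1, the cyclin of mitotic entry, read 6.87, 6.91 and 7.61 at 6 d and 7.43, 7.13 and 6.68 at 8 d. MAD2L1, of the spindle checkpoint (−0.46, adjusted p = 0.367), and TYMS, thymidylate synthase (−0.49, adjusted p = 0.175), were lower in the fit and did not pass. Without batch D, 8 of the 48 mitosis genes lay below 0 and the median was 0.28, and with it 30 did and the median was −0.06. Whether the cell cycle level of batch D bears on the other differences was not tested.

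**Figure D4:**
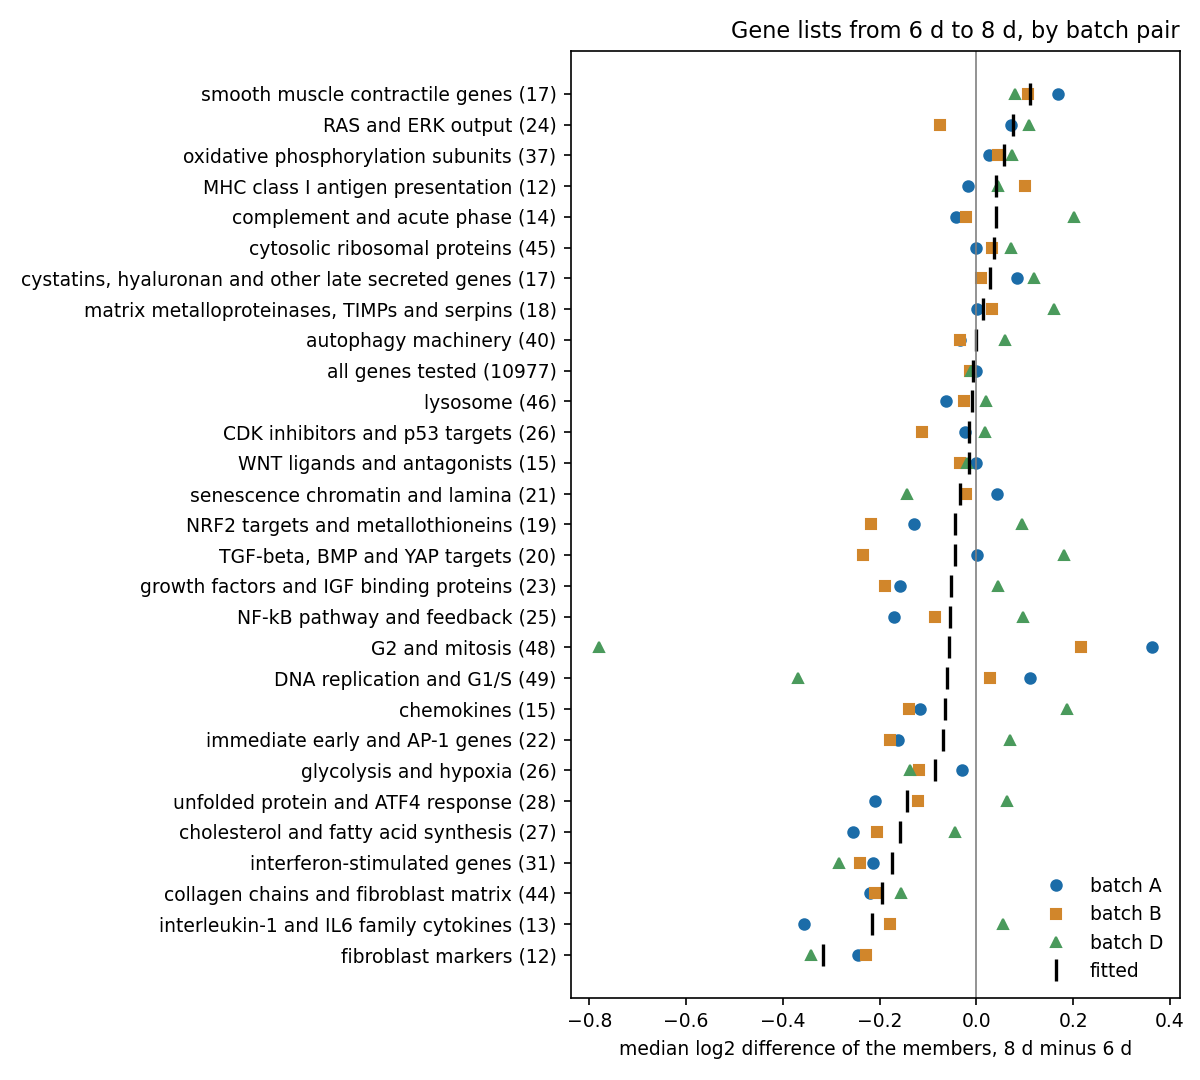
Median log2 difference between 8 d and 6 d (horizontal axis) of the members of 28 gene lists with at least 10 measured genes and of all genes tested, with the number measured in brackets, 1 point per batch pair and a tick for the fitted median. The G2 and mitosis list spreads most, from −0.78 in batch D to 0.36 in batch A, while the matrix and interferon lists lie below 0 in all 3 batches.

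Metabolic and housekeeping groups showed isolated calls, where 0.692% of all genes tested were called higher and 1.02% lower. Of 26 genes of glycolysis and hypoxia 3 fell and 0 rose, with a median of −0.08. SLC2A3, the glucose transporter GLUT3, read 11.22, 11.23 and 10.96 at 6 d and 10.28, 10.50 and 10.63 at 8 d (−0.67 ± 0.10, adjusted p = 0.000688). ALDOC, an aldolase (−0.66 ± 0.16, adjusted p = 0.0421), and CA12, a carbonic anhydrase of the cell surface (−0.59 ± 0.14, adjusted p = 0.0274), were the others. All 3 lost their calls without batch A and without batch B (SLC2A3 adjusted p up to 0.299), ALDOC and CA12 also without 5 and 4 single arrays (up to 0.742 and 0.682), and without batch D 5 of the list fell. Of 46 lysosome genes 1 rose, CTSS, cathepsin S (0.59 ± 0.13, adjusted p = 0.0251), and 2 fell, CTSC, cathepsin C (−0.64 ± 0.12, adjusted p = 0.00677), and GLA, alpha-galactosidase A (−0.36 ± 0.09, adjusted p = 0.0442). The other 2 kept probes of CTSC gave −0.64 and −0.09, and with the mean of its probes CTSC did not pass (−0.46, adjusted p = 0.0758). GLB1, the beta-galactosidase stained for in senescent cells, differed by 0.21 (95% interval 0.01 to 0.41, adjusted p = 0.388). None of the 3 lysosome calls held without batch A or batch B, and that of GLA was lost with each array left out (adjusted p up to 0.613).

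COX6A1, a subunit of cytochrome c oxidase (0.34 ± 0.08, adjusted p = 0.0429), was the 1 of 37 oxidative phosphorylation genes to pass, and MYL9, a myosin light chain of smooth muscle (0.60 ± 0.14, adjusted p = 0.026), the 1 of 17 contractile genes. COX6A1 missed the threshold with each array or batch left out (0.0597 to 0.49), and MYL9 without batch A, batch B or any of 4 single arrays (up to 0.648). ACTA2, smooth muscle actin, differed by 0.01 and did not pass. There were 0 calls among 40 autophagy genes, 45 cytosolic ribosomal proteins, 28 genes of the unfolded protein and ATF4 response, 27 of cholesterol and fatty acid synthesis, 22 immediate early genes, 20 TGF-beta, BMP and YAP targets, 19 NRF2 targets and metallothioneins and 15 WNT ligands and antagonists. With 1.71% of all genes tested called, lists of these sizes can hold 0 calls without differing from other genes. In the cholesterol list 22 of 27 lay below 0 (median −0.16), with INSIG1, which holds back sterol synthesis, at −0.62 (95% interval −1.06 to −0.18, adjusted p = 0.173) and at −0.95, −1.21 and 0.30 in batches A, B and D. The markers of other cell types also held no call, among 4 epithelial, 7 endothelial and 1 immune gene measured. By limma 1329 genes had an unadjusted p under 0.05 in the whole comparison.

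Single members of the lists with no call came nearer than others to the threshold. MYC, the growth-promoting transcription factor (0.36, adjusted p = 0.0787), and KLF6, a zinc finger factor (0.37, adjusted p = 0.199), were higher in all 3 batches. FADS1, a fatty acid desaturase (−0.54, adjusted p = 0.0656), and LEF1, a transcription factor of WNT signalling (−0.43, adjusted p = 0.0827), were lower in all 3. In the autophagy list BNIP3L, a receptor for the removal of mitochondria, differed by 0.52 (adjusted p = 0.249) and GABARAPL1, of the LC3 family, by −0.41 (adjusted p = 0.241). ATF5, a factor of the stress response (−0.37, adjusted p = 0.33), MT1X, a metallothionein (0.36, adjusted p = 0.222), and PMEPA1, a TGF-beta target (−0.38, adjusted p = 0.15), did not pass either.

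Did the late step go on from the step before? Since both steps use the 6 d arrays, their difference was tested, and 31 genes (0.282%) passed, 11 with a higher late step and 20 with a lower one. Of the 188 genes called from 6 d to 8 d, 78 were also called from 4 d to 6 d in the same direction, 5 in the opposite direction and 105 not. From 4 d to 6 d, 1116 of all 10977 genes (10.2%) were called. With the 6 d arrays in both steps the errors are linked, so these counts do not answer the question. NDP, norrin, a ligand of the WNT receptor frizzled 4, rose by 2.04 ± 0.13 from 4 d to 6 d and by 0.52 ± 0.13 from 6 d to 8 d. ODC1, ornithine decarboxylase of polyamine synthesis, rose by 1.18 ± 0.10 in the earlier step and differed by −0.04 in the later. RALA, a small GTPase downstream of RAS, rose by 0.87 ± 0.09 and then differed by −0.20. EPHX1, the microsomal epoxide hydrolase, rose by 0.50 ± 0.09 and then fell by 0.48 ± 0.09 (adjusted p = 0.0035). LUM differed by 0.38 before 6 d and fell by 1.13 after it.

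Upward, ALDH1A3, a retinaldehyde dehydrogenase, fell by 1.45 ± 0.13 from 4 d to 6 d and differed by −0.13 from 6 d to 8 d. LXN, latexin, a carboxypeptidase inhibitor, fell by 1.53 ± 0.11 and again by 0.57 ± 0.11 (adjusted p = 0.00668). PYGL, liver glycogen phosphorylase, had fallen by 0.69 ± 0.09 and then differed by 0.22. The count of 31 changed with the arrays left out: it was 2 without 6 d A, 1 without 6 d B, 0 without batch A, 4 without batch B and 238 without batch D. A fit on fewer arrays is also less precise, and what lay behind the changes in count was not tested. By limma 539 genes had an unadjusted p under 0.05 in that contrast without batch A. LXN lost its call in the late step without batch A or batch B (adjusted p up to 0.147), EPHX1 and NDP without these and other arrays (up to 0.396 and 0.585), and NDP in the fit without batch (0.152).

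**Figure D5:**
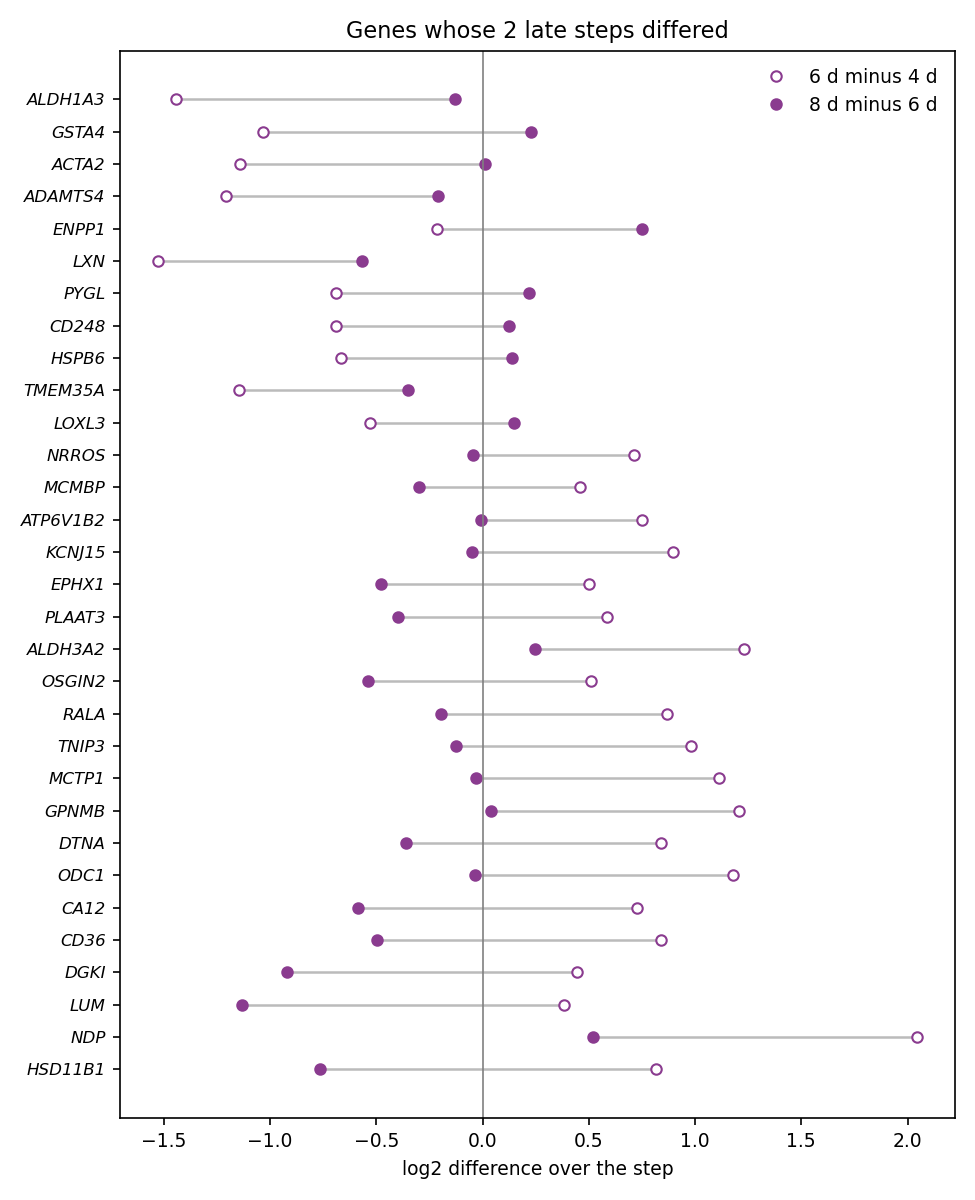
Log2 difference over the step from 4 d to 6 d (open circles) and over the step from 6 d to 8 d (filled circles) for the 31 genes in which the steps differed, joined by a line per gene. ADAMTS4 was above background on only 1 of 3 arrays at 6 d. In 27 of the 31 the open circle lies farther from 0 than the filled one, as for NDP, at 2.04 and 0.52.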

How the data were processed

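Expression was measured on 24 Illumina human-6 v2 BeadChips, 3 at each of 8 time points. For each array the authors deposited log2 intensities of 48701 probes, and the series matrix holds the authors' log2 intensities after a between-array normalization, which the values show to be quantile normalization (median absolute difference 0.00274 from one made here). Per the labels' protocols, RNA was taken with RNeasy and cRNA made with the Ambion MessageAmp kit. No detection p was used. A probe counted as above background on an array where its deposited value had a p under 0.01 in a model built from the mode of that array's values and the spread below it, and 26.6% to 30.1% of probes did. The number of arrays limits the precision.

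Probes above background on at least 3 of 24 arrays were kept (16036). Of all probes 23687 had 1 gene symbol, 35 several and 24979 none. The brightest kept probe on average stood for its gene, giving 10977 genes, of which 1203 had several kept probes. limma 3.58.1 (R 4.3.3) was fitted on all 24 arrays with 8 time point means and the batch letter as a block (14 residual and 6.72 prior degrees of freedom), with Benjamini-Hochberg adjustment over all genes and a threshold of 0.05, after a test on simulated data. Within 6 d and 8 d alone the block leaves few degrees of freedom, so the spread was shared over time points. The labels give the letters as biological batches, so they pair the arrays. Residuals of same-letter arrays at 6 d and 8 d had correlations of 0.026 (A), 0.115 (B) and 0.065 (D). Of 24 arrays, 9 correlated best with their own letter, of 3 possible letters. Over all time points the mean same-letter correlation was 0.037, so little of the spread followed the letter. Whether batches are separate cultures or thaws is not stated.

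The 12 largest called rises and falls had to go the same way in all 3 batches and be above background on all 3 arrays of 6 d or 8 d. To these were added up to 6 called members of each of 31 gene lists (in lists with none, the 2 with the smallest p), the 5 genes with the smallest p in each direction of the step difference, and 26 genes of senescence. The lists, written from general knowledge, and the genes were chosen with earlier results of these data known. Alternatives were other samples in the fit, no block, other values, normalizations, probe filters and spread models, and leaving out arrays or batches.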

Additional observations from a re-analysis of the deposited data

Results flagged for a closer look

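In 31 genes the step from 6 d to 8 d differed from the step from 4 d to 6 d by a test of the difference itself (limma, adjusted p under 0.05). The steps share the 6 d arrays, so an unusual 6 d value moves both in opposite directions. The genes with the smallest p and a later step above the earlier one were PYGL (a difference of steps of 0.91), GSTA4, a glutathione transferase (1.26), ALDH1A3 (1.32), LXN (0.96) and ADAMTS4, a protease that cuts the proteoglycan aggrecan (1.00). Those with a later step below the earlier one were MCTP1, a calcium-binding membrane protein (−1.14), ODC1 (−1.21), RALA (−1.06), NDP (−1.52) and EPHX1 (−0.98). GSTA4 fell by 1.04 from 4 d to 6 d and then differed by 0.23, while ADAMTS4 fell by 1.21 and then differed by −0.21. ADAMTS4 was above background on 1 of 3 arrays at 6 d and 0 of 3 at 8 d, so a further fall could not be measured. Whether its difference of steps comes from that floor was not tested. MCTP1 rose by 1.11 and then differed by −0.03. None of these 10 genes passed without batch A, and ODC1 alone passed without every other array and batch.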

How the results depend on the processing

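The 50 called genes of the naming rule kept their direction under all alternatives run. Against 188 genes called, 40.4% of them higher, 152 passed with no replicate block (147 of the same genes, 43.4% higher), 99 with only the 6 arrays of 6 d and 8 d and no replicate block, 289 without the 4 d arrays, 20 with median-centred values (60% higher) and 1076 with an intensity trend and array weights. Leaving out single arrays or a batch gave from 11 to 465. The other alternatives, 149 to 199 genes, stayed within 1.5 times. Genes with an interval inside 0.5 numbered 17221 with no filter on dim probes, where 18774 genes were tested. For the difference of steps, 31 became 19 with no replicate block, 0 with median-centred values (limma, 323 genes at an unadjusted p under 0.05), 1042 with trend and array weights, and 0 to 238 with arrays left out. That contrast could not be fitted without the 4 d arrays. Array weights did not fully converge, ran from 0.18 (4 d B) to 6.54 (24 h A), and the cause of the higher counts was not tested. With 3 arrays a time point, the call count depends on which batch is left out more than on the filter, the probe rule or normexp. Median-centred values (20) and trend with array weights (1076) also moved it far. Signals near background or near the top of the range understate changes.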

Other observations

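Genes outside the lists, chosen after their values were seen, are given as values. Of 33 measured genes of the histone clusters, 7 rose from 6 d to 8 d and 0 fell, with 28 above 0 and a median of 0.18 (0.21, 0.20 and 0.12 in batches A, B and D). Over all genes tested 0.692% were called higher and 5239 of 10977 lay above 0. The clusters hold genes of core and linker histones, whose transcripts in dividing cells are made in S phase and lack a poly(A) tail. H4C8 read 7.98, 7.96 and 8.43 at 6 d and 8.70, 8.74 and 8.91 at 8 d (0.66 ± 0.10, adjusted p = 0.00114), and H2BC6 read 7.23, 7.22 and 7.15 and then 7.75, 7.92 and 7.79 (0.62 ± 0.09, adjusted p = 0.000515). For both the groups were apart in all batches, while the mean level of the mitosis genes was higher at 8 d in batches A and B and lower in D. H2BC8 (0.57), H2BC4 (0.54), H4C5 (0.52), H2BC21 (0.50) and H2AC21 (0.45) were the others.

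TEAD4 (−0.45 ± 0.07, adjusted p = 0.00176) and TEAD2 (−0.68 ± 0.12, adjusted p = 0.00302), DNA-binding partners of YAP, fell, as did PRRX1, a homeobox factor of mesenchymal cells (−0.57 ± 0.12, adjusted p = 0.0162). The list of TGF-beta, BMP and YAP targets had 0 of 20 called, where 1.71% of all genes tested were, and a median of −0.04. F2R, the main thrombin receptor, read 11.65, 11.75 and 11.74 at 6 d and 10.96, 10.85 and 11.28 at 8 d (−0.68 ± 0.13, adjusted p = 0.00509). TRPA1, an ion channel for irritants, had groups far apart for its spread, from 7.82, 7.92 and 7.67 to 7.16, 7.14 and 7.02 (−0.70 ± 0.07, adjusted p = 1e-05). SERPIND1, heparin cofactor II, rose from 7.17, 7.25 and 7.12 to 7.78, 7.81 and 8.03 (0.70 ± 0.09, adjusted p = 8.46e-05). HSD11B1, which makes active cortisol, rose by 0.82 ± 0.14 from 4 d to 6 d and fell by 0.77 ± 0.14 from 6 d to 8 d (adjusted p = 0.00509).

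C11orf96 was called lower (−1.21 ± 0.30, adjusted p = 0.0429) with 10.12, 10.10 and 8.67 at 6 d and 8.27, 8.29 and 8.69 at 8 d, and is the 1 called gene of 188 whose batches differ in sign. Of 3572 kept probes with no gene symbol, 16 rose and 12 fell by limma.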
